A study of Mus musculus with 3 samples.

Results

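The glycolysis and hypoxia response genes described here are 37 genes taken by name: 2 glucose transporters, 13 glycolytic enzymes, 5 genes of pyruvate and lactate handling or glycolytic control, 4 genes of the hypoxia-inducible factor (HIF) system and 13 other HIF targets. Members were the rows with these gene names among the 23953 rows of each of 2 RNA-seq tables, and 36 of the 37 had a row of their own. The values that follow are levels in FPKM, fragments scaled by transcript length and by the depth of the library, so that levels of different genes can be set side by side per length.

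The tables hold RNA-seq of E14 mouse embryonic stem cells (ESCs), a line kept here in serum medium with LIF, in 3 libraries, 1 for each condition. The library labelled Tam came from *Oct4* DE (-/-) cells, in which loxP sites flank the distal enhancer (DE) of *Oct4*, after 48 h with 4-OH tamoxifen, which activates the Cre recombinase CreER(T2). The library labelled DoxTam came from such cells given 4-OH tamoxifen and doxycycline together for 48 h, where doxycycline switches on a mouse *Oct4* transgene through rtTA. The transgenes were brought in by lentivirus and the lines were expanded from single clones, so each line is 1 clone. The labels list the doxycycline-inducible and the tamoxifen-inducible construct for all 3 libraries, WT included. The study calls its controls wild-type (+/+) cells, which points to cells without the loxP sites, but the genotype of the sequenced WT library itself is not spelled out in its label. No treatment time is recorded for the WT library, so whether it received either drug is not known here. Without replicates no p-value is given, and a fold compares a pair of libraries, not the conditions. In bulk RNA, fewer cells with a transcript and less of it per cell cannot be told apart.

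*Pou5f1*, the gene of *Oct4*, stood at 664, 529 and 458 FPKM in the libraries labelled WT, Tam and DoxTam. In Tam, where an enhancer of the gene was to be deleted, the log2 fold against WT was -0.33, inside 1.5-fold. In DoxTam, where the transgene should add *Oct4* transcript, the level was the lowest of the libraries. This check thus bears out neither label, and Tam and DoxTam are used below only as the names of libraries. The 10 pluripotency markers summed to 3007, 2738 and 2747 FPKM in WT, Tam and DoxTam and all were above 1 FPKM, while the 8 fibroblast markers summed to 6.63, 4.998 and 3.74 FPKM. Judged by the level that a single fragment gives, WT was the deepest library, and Tam and DoxTam held about 0.46 and 0.517 times its fragments. A transcript of 1 kb with 1 fragment then had 0.0772, 0.168 and 0.149 FPKM. Genes at 0 FPKM numbered 5333 in WT, 3667 in Tam and 6634 in DoxTam, so Tam had the fewest despite its lower estimated depth. The reason was not tested, and low genes seen only in Tam need the same care. The fold of a gene moved with the GC content of its transcript (Spearman rho across genes -0.39 for Tam and -0.61 for DoxTam against WT, over 11292 and 11047 genes that share the same libraries), so each member's fold that crossed the threshold is also given with this trend removed.

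Glycolysis splits glucose into pyruvate and yields ATP without oxygen, and lactate dehydrogenase then turns pyruvate into lactate so that the pathway can go on. ESCs are known for a high rate of glycolysis even when oxygen is present. HIF is a transcription factor of an oxygen-sensitive alpha subunit and a stable beta subunit. Prolyl hydroxylases mark the alpha subunit for destruction when oxygen is present, and when oxygen falls HIF switches on glycolytic enzymes together with genes of mitophagy, vessel growth and collagen modification.

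HIF binds DNA at a short core, ACGTG or GCGTG. Promoter sequences from RefSeq (mouse build GRCm38.p6, 250 bases before to 50 bases after each start) were matched by symbol for 32 of the 37 members, which had 47 promoters. The 250 bases before the start are printed for the members whose levels the results below turn on, *Bnip3* and *Aldoc*, higher in both treated libraries, and *Ldhb*, lower in DoxTam, and for *Ldha* as the partner of *Ldhb*. Each runs 5′ to 3′ on the strand of the gene, at chr7:138909507-138909756 (minus strand) for *Bnip3*, chr11:78322823-78323072 (plus strand) for *Aldoc*, chr7:46845554-46845803 (plus strand) for *Ldha* and chr6:142507958-142508207 (minus strand) for *Ldhb*. Capitals mark the cores on either strand, so a core on the other strand is read as CACGT or CACGC, and in CACGTG, which is also the letters of an E-box, a core on each strand overlaps.
Bnip3: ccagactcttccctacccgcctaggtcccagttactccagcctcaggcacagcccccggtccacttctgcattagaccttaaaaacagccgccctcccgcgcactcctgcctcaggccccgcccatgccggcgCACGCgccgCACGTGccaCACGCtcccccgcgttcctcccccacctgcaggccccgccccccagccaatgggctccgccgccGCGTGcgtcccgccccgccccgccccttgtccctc
Aldoc: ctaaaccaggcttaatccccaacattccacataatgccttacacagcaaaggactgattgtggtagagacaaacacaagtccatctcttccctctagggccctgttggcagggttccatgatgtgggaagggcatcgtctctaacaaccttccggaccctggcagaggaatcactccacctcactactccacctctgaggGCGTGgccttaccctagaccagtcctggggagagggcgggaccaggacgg
Ldha: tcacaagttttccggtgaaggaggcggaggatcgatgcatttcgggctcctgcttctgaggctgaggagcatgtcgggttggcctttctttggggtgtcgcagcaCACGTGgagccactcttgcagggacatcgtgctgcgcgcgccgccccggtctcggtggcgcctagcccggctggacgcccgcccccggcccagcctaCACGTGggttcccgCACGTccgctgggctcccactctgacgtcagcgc
Ldhb: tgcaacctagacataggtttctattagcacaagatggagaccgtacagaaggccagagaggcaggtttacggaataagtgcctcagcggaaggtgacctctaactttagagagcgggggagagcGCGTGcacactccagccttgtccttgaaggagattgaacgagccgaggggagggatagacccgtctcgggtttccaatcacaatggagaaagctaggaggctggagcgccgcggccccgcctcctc

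In these windows *Bnip3* held 2 ACGTG and 3 GCGTG cores, *Aldoc* 1 GCGTG core, *Ldha* 5 ACGTG cores and *Ldhb* 1 GCGTG core. Over the whole 300 bases, at least 1 of the 2 cores was in 80.9% of the 47 member promoters, beside 43.8% of all 32851 promoters of the same length. ACGTG was in 55.3% of member promoters and 19.6% of all promoters, and GCGTG in 59.6% and 32.4%. Promoters of glycolytic enzymes held a core in 77.3% of 22 and those of other HIF targets in 76.9% of 13. Both cores hold a CG, and the 2 sets of promoters were not matched for base composition or expression. Many members were also listed as HIF targets, so the shares are a description only. Promoters of 1 gene can overlap, and a match is a run of letters, not a bound site. *Gpi1* and *Tpi1* had no core in these 300 bases. No promoter entry was matched for *Bhlhe40*, *Bnip3l*, *Epas1*, *Ndrg1* and *Slc2a3*.

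In WT cells the levels of the 36 genes ran from 729 FPKM for *Aldoa* down to 0.12 FPKM for *Adm*. The highest were the aldolase *Aldoa*, the triose dehydrogenase *Gapdh* (549 FPKM) and the lactate dehydrogenase *Ldha* (486 FPKM), and these 3 kept ranks 1 to 3 in every library. In WT 9 members reached 100 FPKM or more, and all of them belong to glucose uptake, glycolysis or lactate handling. The 13 other HIF targets began at 36.6 FPKM with *Kdm3a* in WT. Their levels summed to 172 FPKM in WT, 253 FPKM in Tam and 234 FPKM in DoxTam, beside 2008, 2305 and 2060 FPKM for the 12 glycolytic enzymes with a row. A pair of HIF targets, *Car9* and *Adm*, stayed below 1 FPKM in all libraries.

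**Figure D1:**
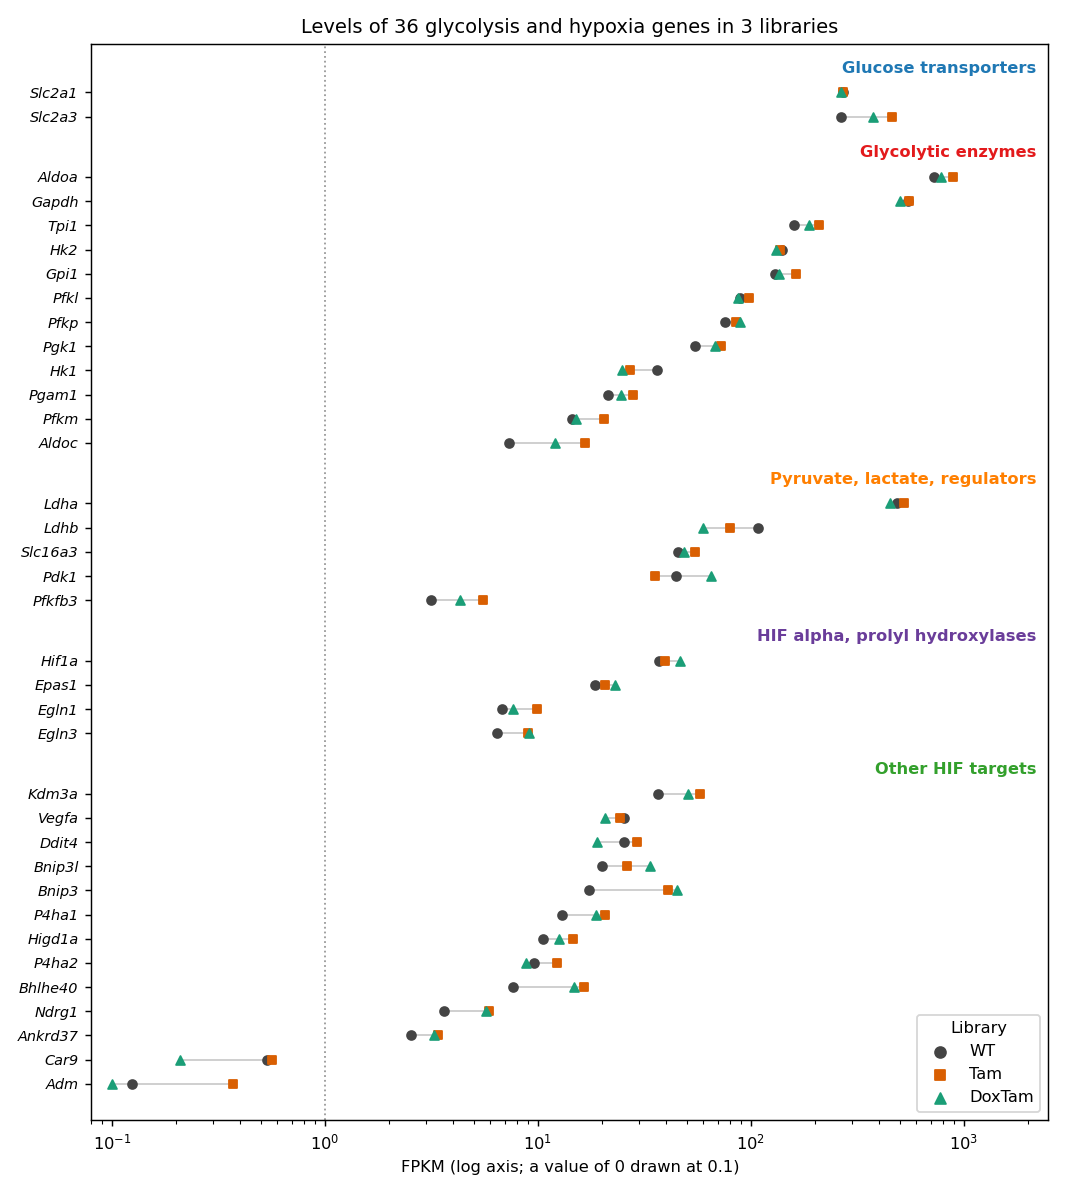
Level of each of 36 members in FPKM (log axis; a level of 0 is drawn at 0.1) in the WT, Tam and DoxTam libraries, 1 library each, with members grouped by role and ordered by WT level; the dotted line is 1 FPKM. *Aldoa*, *Gapdh* and *Ldha* lie highest in every library, and for *Bnip3* both treated libraries (40.9 and 45.3 FPKM) lie right of WT (17.4 FPKM).

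A member counted as measured when either library of a comparison held it at 1 FPKM or above, which 34 of 36 did in every comparison, and as higher or lower at 1.5-fold on log2((FPKM + 1)/(FPKM + 1)), a scale that understates folds of low genes. In Tam against WT 7 of 34 members were higher and 0 were lower, where 6.98% of the 12705 genes measured were higher and 3.59% were lower. The 7 were *Bnip3*, *Aldoc*, *Bhlhe40*, *Slc2a3*, *Pfkfb3*, *Kdm3a* and *P4ha1*. In this comparison 29 of 34 folds were above 0 and their median was 0.33, beside 0.02 for all genes measured. In DoxTam against WT 4 of 34 were higher (*Bnip3*, *Bhlhe40*, *Bnip3l* and *Aldoc*) and 1 was lower (*Ldhb*), where 4.12% of 12384 genes were higher and 5.78% were lower, with a median of 0.23 beside -0.0028. Both comparisons share the WT library.

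With the GC trend removed, 6 of 34 members were higher and 0 lower in Tam, beside 5.6% and 2.02% of 11292 genes, and 4 were higher and 1 lower in DoxTam, beside 2.05% and 2.24% of 11047 genes. *Kdm3a* and *P4ha1* then fell short of 1.5-fold in Tam (0.56 and 0.54) and *Bnip3l* did so in DoxTam (0.43). *Ndrg1* crossed it in both, at 0.63 and 0.60. The members just outside the threshold as deposited were *Ndrg1* in Tam (0.58) and in DoxTam (0.54), where the threshold is 0.58496.

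**Figure D2:**
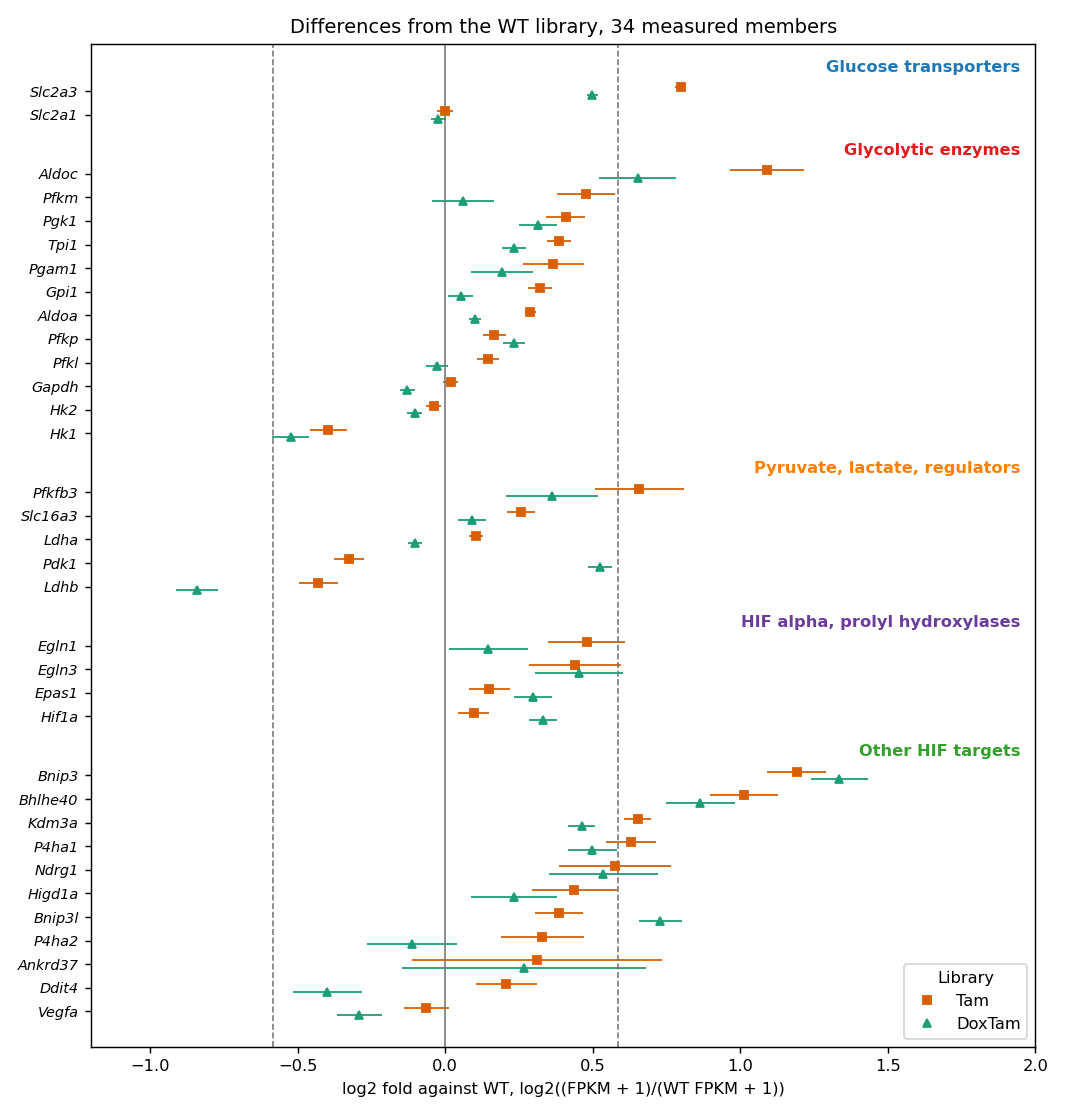
Log2 fold of each of the 34 measured members against the WT library in Tam (squares) and DoxTam (triangles), grouped by role; bars are the approximate counting standard error from estimated fragments, dashed lines mark 1.5-fold and there are no replicates. *Bnip3* lies furthest right in both libraries (1.19 and 1.34) and *Ldhb* in DoxTam furthest left (-0.84).

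Both glucose transporters were abundant, and they parted in the treated libraries. *Slc2a3*, the high-affinity transporter GLUT3 (chr6:122677827-122751658 in mm9, minus strand), stood at 265 FPKM in WT, 461 FPKM in Tam and 374 FPKM in DoxTam. It was lowest in WT, with log2 folds of 0.80 in Tam and 0.50 in DoxTam (0.78 and 0.46 with the GC trend removed). *Slc2a1*, the basal transporter GLUT1, stood at 270.1, 270.1 and 266 FPKM, a span narrower than that of *Slc2a3*. The ratio of *Slc2a3* to *Slc2a1* within a library was 0.98 in WT, 1.71 in Tam and 1.41 in DoxTam.

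Of the 12 glycolytic enzymes measured, 1 reached 1.5-fold in each treated library, and it was the same gene, *Aldoc*. That is 8.33% of the enzymes, near the 6.98% of all genes that were higher in Tam and the 4.12% in DoxTam, so the count says nothing particular about the enzymes. *Aldoc*, the brain-type aldolase (chr11:78136470-78141283 in mm9, plus strand), stood at 7.32 FPKM in WT, 16.7 FPKM in Tam and 12.1 FPKM in DoxTam. Its log2 folds were 1.09 and 0.65, with approximate counting errors of 0.12 and 0.13, and 1.13 and 0.70 with the GC trend removed. The main aldolase *Aldoa* held far more transcript, at 729, 890.2 and 782 FPKM, so *Aldoc* made up a small part of the aldolase transcripts everywhere (a ratio to *Aldoa* of 0.010, 0.019 and 0.015). Over all 12 enzymes the median log2 fold was 0.31 in Tam, with 10 above 0, and 0.08 in DoxTam, with 8 above 0.

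The enzymes of the upper part of the pathway did not move alike. Hexokinase traps glucose in the cell, and its ubiquitous form *Hk1* stood at 36.1 FPKM in WT, 27.2 FPKM in Tam and 24.8 FPKM in DoxTam (log2 folds -0.40 and -0.52). The inducible form *Hk2* stood at 141, 137 and 131 FPKM. *Hk1* had the lowest fold of the 12 enzymes in both libraries, inside the threshold in each. *Gpi1*, the phosphoglucose isomerase, stood at 131, 163 and 135 FPKM. Among the phosphofructokinases, which catalyse the committed step, *Pfkl* stood at 88.8, 98.3 and 87.1 FPKM. The muscle form *Pfkm* was lower, at 14.5, 20.6 and 15.2 FPKM, and highest in Tam. The platelet form *Pfkp* stood at 75.6, 85.0 and 89.1 FPKM, and the gene *Pitrm1* on the other strand overlaps its exons.

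The lower enzymes lay a little above WT in Tam, without reaching 1.5-fold. Triose phosphate isomerase *Tpi1* stood at 160 FPKM in WT, 209 FPKM in Tam and 188 FPKM in DoxTam. Phosphoglycerate kinase *Pgk1*, the first ATP-yielding enzyme, stood at 54.7, 72.9 and 68.3 FPKM. The mutase *Pgam1* stood at 21.5, 28.0 and 24.7 FPKM. For these 3 enzymes WT was the lowest library and Tam the highest, with log2 folds in Tam of 0.38, 0.41 and 0.37. *Gapdh*, a reference gene of the study's quantitative PCR beside beta-actin in some assays, stood at 549, 556 and 502 FPKM, log2 folds of 0.02 and -0.13. The second becomes 0.10 with the GC trend removed. It becomes 0.23 when libraries are rescaled to the same total, a step that moves the median of all genes in DoxTam to 0.32.

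The enolase *Eno1* had no row of its own. An entry joins *Eno1* with *Eno1b*, at 0.00019, 2.20 and 0.00031 FPKM in WT, Tam and DoxTam. Another is named *Eno1b* alone, at 60.1, 59.0 and 42.9 FPKM. Both were taken by name, and their positions were not compared with that of the *Eno1* gene (chr4:149610830-149622988 in mm9). How reads were shared between these 2 entries cannot be seen, so *Eno1* was left out of every count. Near-identical copies also touch other enzymes. At 90% identity over 50% of the coding sequence, 12 of the 37 genes had further copies in the genome. There were 148 for *Gapdh*, 9 for *Ldha*, 6 for *Eno1* and 4 each for *Aldoa*, *Pgam1* and *Bnip3*. *Pgk1*, *Bnip3l* and *Higd1a* had 2 each, and *Gpi1*, *Tpi1* and *Ldhb* had 1 each. Levels of these genes depend on how the authors' counting placed reads shared with a copy. In 11 of the 37 an exon of a gene on the opposite strand overlaps, among them *Slc2a1*, *Hk1*, *Gpi1*, *Tpi1*, *Slc16a3*, *Hif1a*, *Ankrd37*, *Car9* and *Ndrg1*.

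Among the 5 genes of pyruvate and lactate handling and glycolytic control, *Pfkfb3* was higher in Tam and *Ldhb* lower in DoxTam. *Ldhb*, the lactate dehydrogenase subunit that favours use of lactate (chr6:142438769-142456477 in mm9, minus strand), stood at 108 FPKM in WT, 80.0 FPKM in Tam and 59.9 FPKM in DoxTam. It was highest in WT and lowest in DoxTam, with log2 folds of -0.43 and -0.84 and approximate counting errors of 0.07 in both, and -0.37 and -0.75 with the GC trend removed. *Ldha*, the subunit that favours lactate formation, stood at 486, 522 and 453 FPKM. The ratio of *Ldhb* to *Ldha* was 0.22 in WT, 0.15 in Tam and 0.13 in DoxTam.

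*Pdk1*, the kinase that shuts pyruvate out of the citric acid cycle (chr2:71711281-71741915 in mm9, plus strand), stood at 44.8 FPKM in WT, 35.5 FPKM in Tam and 64.8 FPKM in DoxTam. The treated libraries lay on opposite sides of WT, at log2 folds of -0.33 and 0.52. *Pfkfb3*, which makes the activator of phosphofructokinase, was low, at 3.14, 5.54 and 4.33 FPKM (log2 folds 0.66 and 0.36, approximate counting errors 0.15 and 0.16, and 0.66 and 0.35 with the GC trend removed). *Slc16a3*, the lactate exporter MCT4, stood at 45.8, 54.9 and 48.8 FPKM, inside the threshold in both.

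**Figure D3:**
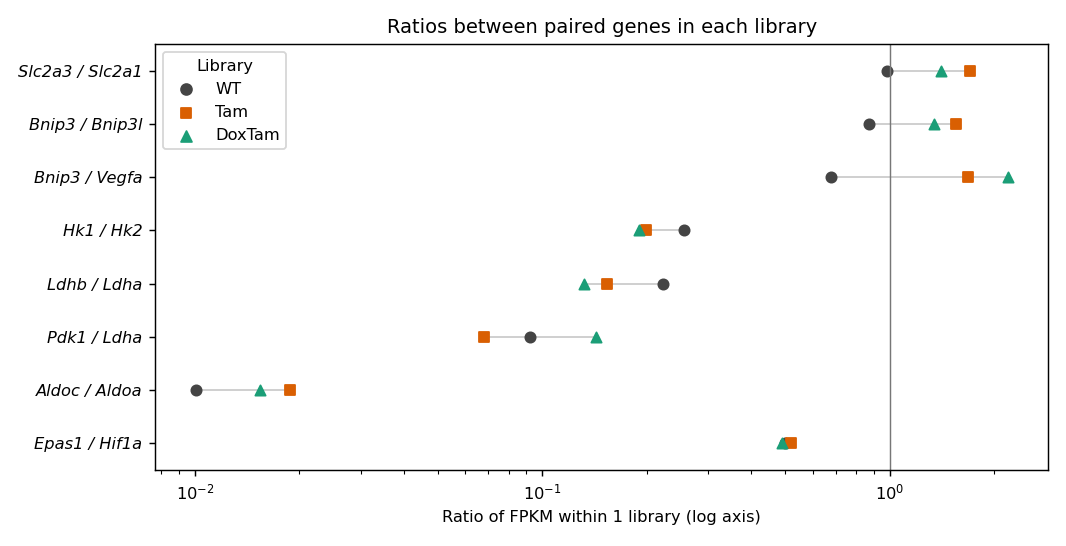
Ratio of the FPKM of a gene to that of its partner within each library (log axis), 1 library per point; the vertical line is a ratio of 1. *Slc2a3* over *Slc2a1*, *Bnip3* over *Bnip3l* and *Bnip3* over *Vegfa* lie below 1 in WT and above 1 in both treated libraries, while *Ldhb* over *Ldha* is highest in WT (0.22).

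The 4 genes of the HIF system itself all stayed inside 1.5-fold. Of all genes measured 6.98% were higher and 3.59% lower in Tam, and 4.12% and 5.78% in DoxTam. A count of 0 of 4 thus says nothing particular about these genes. *Hif1a*, the main alpha subunit, stood at 36.96 FPKM in WT, 39.6 FPKM in Tam and 46.8 FPKM in DoxTam, and *Epas1*, which encodes HIF-2 alpha, stood at 18.5, 20.6 and 23.0 FPKM. The ratio of *Epas1* to *Hif1a* was 0.50, 0.52 and 0.49. The prolyl hydroxylase *Egln1* stood at 6.81, 9.88 and 7.64 FPKM, and *Egln3*, a hydroxylase that is itself a HIF target, at 6.40, 9.04 and 9.14 FPKM. All 4 folds were above 0 in each comparison, between 0.10 and 0.48 in Tam and between 0.15 and 0.45 in DoxTam, but that of *Hif1a* in Tam became -0.09 with the GC trend removed. These are transcript levels, and the alpha subunits are controlled mainly as proteins.

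On the deposited values *Bnip3* had the largest fold of the 34 measured members in both treated libraries; with the GC trend removed it came behind *Aldoc* in Tam (1.01 beside 1.13). *Bnip3*, a mitophagy receptor of the outer mitochondrial membrane (chr7:146082519-146101202 in mm9, minus strand), stood at 17.4 FPKM in WT, 40.9 FPKM in Tam and 45.3 FPKM in DoxTam, from about 395, 428 and 533 fragments. Both treated libraries lay above WT, at 2.36 and 2.61 times its level. The log2 folds were 1.19 and 1.34 with approximate counting errors of 0.10 in both, and 1.01 and 1.03 with the GC trend removed. The transcript of *Bnip3* is among the poorest in GC of the members (41.6%), and the GC trend ran upward at that end. Against *Gapdh* of the same library *Bnip3* stood at 0.032 in WT, 0.073 in Tam and 0.090 in DoxTam.

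Its relative *Bnip3l*, or Nix, stood at 19.9 FPKM in WT, 26.3 FPKM in Tam and 33.7 FPKM in DoxTam (log2 folds 0.38 and 0.73). The order of both genes was the same, with WT lowest and DoxTam highest, but the ratio of *Bnip3* to *Bnip3l* went from 0.87 in WT to 1.55 and 1.35. *Vegfa*, the vessel growth factor and a textbook HIF target, stood at 25.5, 24.4 and 20.7 FPKM. *Bnip3* was therefore below *Vegfa* in WT, at a ratio of 0.68, and above it in Tam (1.68) and DoxTam (2.19).

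*Bhlhe40*, a repressor of the basic helix-loop-helix class (chr6:108610623-108616919 in mm9, plus strand), stood at 7.66 FPKM in WT, 16.5 FPKM in Tam and 14.8 FPKM in DoxTam. Its log2 folds were 1.01 and 0.86, with approximate counting errors of 0.12 in both, and 1.00 and 0.83 with the GC trend removed. An opposite-strand gene, *0610040F04Rik*, overlaps its exons and stood at 3.14, 5.61 and 5.24 FPKM. The kit was stranded but no source used here gives the strand setting of the counting, so reads of the 2 genes cannot be told apart.

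Further HIF targets with folds near the threshold included genes that act in chromatin and in collagen. *Kdm3a*, a histone H3K9 demethylase, stood at 36.6 FPKM in WT, 58.1 FPKM in Tam and 50.8 FPKM in DoxTam (log2 folds 0.65 and 0.46). *P4ha1*, a collagen prolyl hydroxylase, stood at 13.1, 20.7 and 18.9 FPKM (0.63 and 0.50). Its relative *P4ha2* stood at 9.59, 12.3 and 8.79 FPKM. *P4ha1* was lowest in WT, whereas *P4ha2* was close in WT and DoxTam. The log2 fold of *P4ha2* in DoxTam was -0.11 with an approximate counting error of 0.15, and 0.02 with the GC trend removed. *Ndrg1*, a stress-responsive gene, stood at 3.64, 5.91 and 5.72 FPKM (0.58 and 0.54, approximate counting errors 0.19 and 0.18). *Higd1a*, a mitochondrial protein, stood at 10.6, 14.7 and 12.6 FPKM, and the ankyrin repeat gene *Ankrd37* at 2.54, 3.39 and 3.26 FPKM.

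*Ddit4*, or Redd1, an inhibitor of mTORC1 (chr10:59412423-59414518 in mm9, minus strand), stood at 25.3 FPKM in WT, 29.3 FPKM in Tam and 18.9 FPKM in DoxTam. Like *Pdk1* it had the treated libraries on opposite sides of WT, here with Tam the highest (log2 folds 0.21 and -0.40). *Car9*, a carbonic anhydrase that is strongly induced in hypoxic tumours, stood at 0.54, 0.57 and 0.21 FPKM. *Adm*, which encodes the vasodilator adrenomedullin, stood at 0.12 and 0.37 FPKM in WT and Tam and is listed at 0 in DoxTam. At these depths both rest on few fragments, about 14, 7 and 3 for *Car9*, so no difference could be read.

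Set side by side, 1 of 12 measured glycolytic enzymes and 4 of 11 measured other HIF targets were higher in Tam, and 1 of 12 and 3 of 11 in DoxTam, beside 6.98% and 4.12% of all genes. With the GC trend removed the counts in Tam were 1 of 12 and 3 of 11, and in DoxTam 1 of 12 and 3 of 11, beside 5.6% and 2.05% of all genes. The median log2 fold of the enzymes was 0.31 in Tam and 0.08 in DoxTam, and that of the other HIF targets was 0.44 and 0.46. The difference of the medians, enzymes minus HIF targets, was -0.13 in Tam and -0.38 in DoxTam. With the GC trend removed it narrowed to -0.04 and -0.07, with medians of 0.41 and 0.23 for the enzymes and 0.45 and 0.30 for the HIF targets. The median GC content was 54.1% for the enzymes and 50.8% for the HIF targets. The ranges overlapped widely, from -0.40 (*Hk1*) to 1.09 (*Aldoc*) for enzymes and from -0.06 (*Vegfa*) to 1.19 (*Bnip3*) for HIF targets in Tam.

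**Figure D4:**
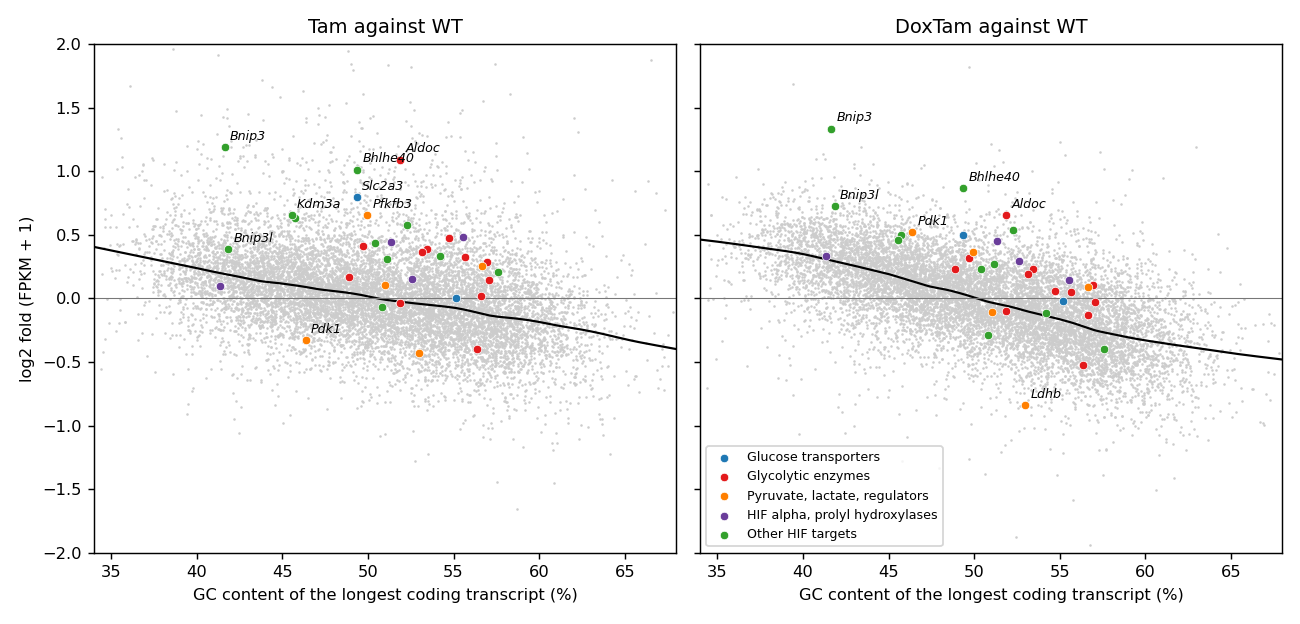
Log2 fold against WT of every measured gene with a GC value (grey) and of the members (coloured by role) against the GC content of the longest coding transcript, for Tam and DoxTam; the black line is the lowess trend and genes beyond a fold of 2 on the log2 scale lie outside the axes. *Bnip3*, at 41.6% GC, lies far above the trend in both panels and *Bnip3l*, at 41.9%, nearer to it.

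Further lists were read beside the members. Among 27 further HIF targets, 24 were measured in Tam and 23 in DoxTam. In each library 5 were higher and 0 lower, with medians of 0.33 in both. Of all genes measured 6.98% were higher in Tam and 4.12% in DoxTam. *Ndufa4l2*, a paralog of a respiratory chain subunit, had the largest fold, at 6.84 FPKM in WT, 17.9 FPKM in Tam and 14.0 FPKM in DoxTam (log2 folds 1.27 and 0.94). *Plod2*, a collagen lysyl hydroxylase, stood at 20.8, 35.2 and 35.0 FPKM, and the transferrin receptor *Tfrc*, which is also on the housekeeping list, at 135, 204 and 248 FPKM. The others, named after their values were seen, were *Stc2*, at 5.02, 8.58 and 8.52 FPKM, and *Wsb1*, at 33.6, 53.7 and 54.6 FPKM. With the GC trend removed 3 of 23 remained in Tam (*Ndufa4l2*, *Plod2* and *Stc2*), beside 5.6% of all genes. In DoxTam the 3 of 22 were *Ndufa4l2*, *Stc2* and *Mif*, beside 2.05% of all genes.

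None of the 10 HIF partners and oxygen sensing genes reached 1.5-fold in either library. Over all genes the shares were 6.98% higher and 3.59% lower in Tam, and 4.12% and 5.78% in DoxTam. A count of 0 of 10 thus says nothing particular about them. The beta subunit *Arnt* stood at 29.1 FPKM in WT, 31.2 FPKM in Tam and 30.3 FPKM in DoxTam. The ubiquitin ligase subunit *Vhl* stood at 6.05, 6.80 and 5.94 FPKM. Among other glycolysis genes 1 of 15 measured was higher in Tam, the testis lactate dehydrogenase *Ldhc* (0.50, 1.97 and 0.91 FPKM), and 1 was lower, the muscle enolase *Eno3* (4.54, 2.56 and 4.82 FPKM), a fold that came inside the threshold with the GC trend removed (-0.56), while 0 of 14 passed 1.5-fold in DoxTam. Pyruvate kinase *Pkm*, the last step of glycolysis, is on this list and stood at 1010.0, 1045 and 968 FPKM.

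The neighbouring pathways showed few genes past the threshold. Of all genes measured 6.98% were higher and 3.59% lower in Tam, and 4.12% and 5.78% in DoxTam. Small counts in these lists are thus not results about the pathways. Of 27 genes of pyruvate dehydrogenase and the citric acid cycle, the pyruvate carrier *Mpc1* was higher in Tam (5.30, 8.77 and 5.82 FPKM) and the malate dehydrogenase *Mdh2* was lower in DoxTam (224, 154 and 136 FPKM), at a log2 fold of -0.72 that became -0.54 with the GC trend removed. Of 8 pentose phosphate genes, the epimerase *Rpe* was higher in both (31.1, 61.9 and 47.2 FPKM), in DoxTam only before the GC trend was removed. None of 16 respiratory chain genes passed 1.5-fold, with medians of -0.01 in Tam and -0.05 in DoxTam. Of 10 measured housekeeping genes 2 were higher in both libraries, *Tfrc* and *B2m* (20.3, 51.3 and 45.9 FPKM), and the log2 fold of *B2m* in Tam, 1.30, was above that of *Bnip3*.

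**Figure D5:**
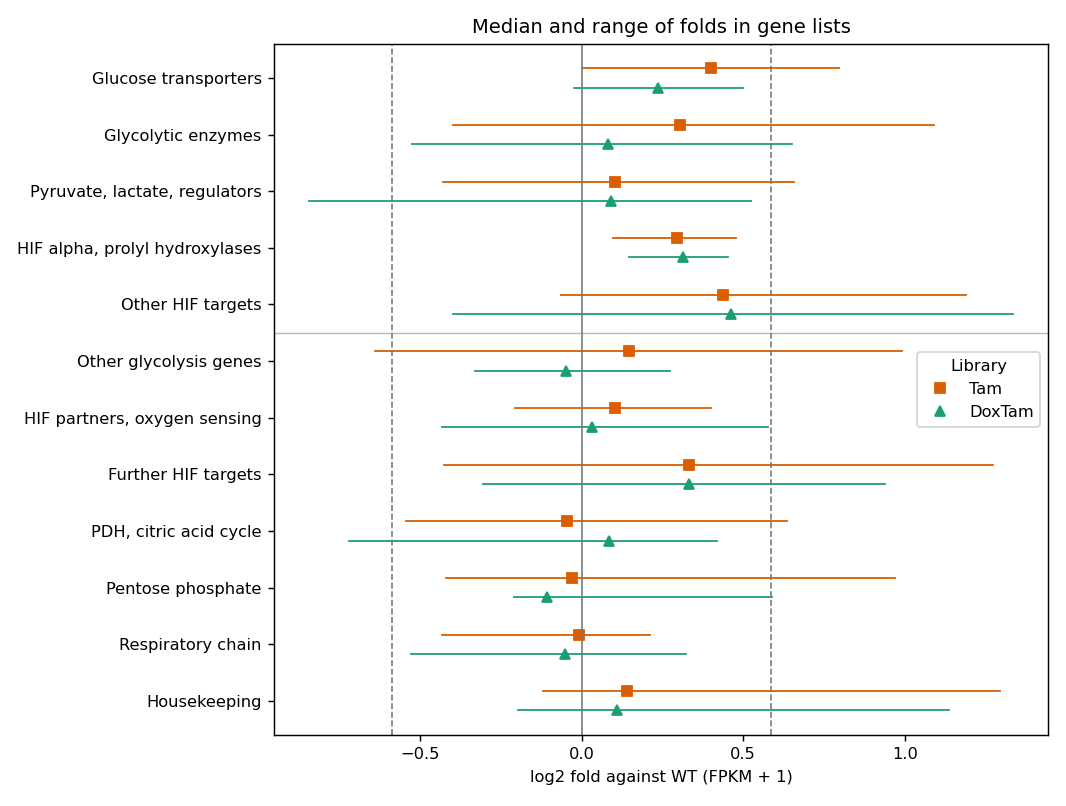
Median (symbol) and full range (line) of log2 folds against WT over the measured genes of each list in Tam and DoxTam; lists above the grey line are the members by role, PDH is pyruvate dehydrogenase, and dashed lines mark 1.5-fold. Among the 12 lists drawn, on the deposited values, other HIF targets have the highest median in both libraries (0.44 and 0.46), and the respiratory chain lies near 0. With the GC trend removed, not drawn, their median in DoxTam is 0.299. The HIF alpha subunits and prolyl hydroxylases (0.351), the pyruvate, lactate and regulator genes (0.319) and, narrowly, the glucose transporters (0.300) then lie above it.

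Between the treated libraries, DoxTam against Tam, 1 of 34 members was higher, *Pdk1* (log2 fold 0.85, approximate counting error 0.05), and 1 was lower, *Ddit4* (-0.61, 0.13). Of all 12647 genes measured 2.09% were higher and 5.74% were lower. With the GC trend removed *Pdk1* stayed past the threshold at 0.79 and *Ddit4* did not, at -0.50, beside 1.48% of 11255 genes higher and 4.69% lower. In this comparison 27 of 34 folds were below 0, with a median of -0.16 beside -0.02 for all genes, which turns to 0.05 when libraries are rescaled to the same total, a step that moves the median of all genes to 0.17. Of the 12 enzymes 11 lay below 0, as did 9 of the 11 other HIF targets, with *Bnip3* and *Bnip3l* the 2 above 0 (0.14 and 0.34). Among the other glycolysis genes *Eno3* was higher, and *Eno2* and *Ldhc* were lower.

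Markers of other cell types were read as whole lists. Of the 8 trophectoderm markers 5 were measured in Tam and 3 in DoxTam. In Tam *Cdx2* (0.64, 2.82 and 0.13 FPKM in WT, Tam and DoxTam) and *Gata3* (0.10, 1.77 and 0.21 FPKM) were higher than in WT, while in DoxTam *Eomes* was higher (2.91, 4.08 and 5.43 FPKM) and *Tfap2c* lower (6.55, 4.46 and 3.70 FPKM). These markers thus did not move one way. Of the 6 neuroectoderm markers 2 were measured, and in Tam *Nes* was higher (1.71, 3.62 and 1.35 FPKM) and *Tubb3* lower (24.8, 15.3 and 20.7 FPKM). With the GC trend removed *Tubb3* came inside the threshold in Tam (-0.50). The primitive streak factor *T* was higher in Tam (0.31, 1.92 and 0.51 FPKM). The fibroblast marker *Thy1* was lower in both treated libraries (4.52, 2.27 and 2.63 FPKM), in DoxTam only before the GC trend was removed (-0.42 after). The 8 trophectoderm markers summed to 22.5, 28.4 and 21.7 FPKM, the 7 primitive endoderm markers to 3.93, 3.74 and 3.72 FPKM, the 6 neuroectoderm markers to 28.2, 20.6 and 23.8 FPKM, and the 5 mesoderm markers with a row to 1.88, 3.88 and 2.69 FPKM. Their part in the folds of the members was not tested.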

How the data were processed

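The authors deposited 2 tables with 1 row per gene, each setting a treated library beside WT. The deposited levels are in FPKM. By the submitters' processing notes they come from Cufflinks 2.0.0, with TopHat and Bowtie as aligners (no version given) and mm9 as the genome. The deposited columns of log2 ratios, p-values, q-values, test statistics (a score) and status hold the authors' own comparison of 1 library with another and were not used. WT levels differed by over 1% between the tables for 2 genes, 0 of them members.

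FPKM values were used as deposited, with a pseudocount of 1 FPKM, a minimum of 1 FPKM in either library of a pair, and 1.5-fold as the threshold. GC content was that of the longest GENCODE vM1 coding transcript (same build), and its trend was removed by lowess (span 0.2, statsmodels 0.14.6). Fragments were estimated from FPKM, transcript length and the level of a single fragment, so counting errors are approximate and cover counting only. Copies were searched with blastn 2.17.0. The fold steps were tested on simulated data. Promoter sequences were RefSeq entries of another build and were matched by symbol only.

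The members, gene lists and alternatives were chosen with earlier results of these data known, and no list is independent evidence of its direction. Every member was accounted for. From each further list up to 2 highest and 2 lowest genes past 1.5-fold were named, and *Pkm*, *Arnt*, *Vhl*, *Mif*, *Stc2* and *Wsb1* were named after their values were seen. The alternatives changed the pseudocount (0.1 or 5 FPKM), the filter (none or 5 FPKM), the scale (the same total, with or without small RNA genes, or centring), the GC trend and the threshold (2-fold).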

Additional observations from a re-analysis of the deposited data

Results flagged for a closer look

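*Pdk1* and *Ddit4* were the 2 members whose treated libraries lay on opposite sides of WT and at least 1.5-fold apart. *Pdk1* stood at 44.8 FPKM in WT, 35.5 FPKM in Tam and 64.8 FPKM in DoxTam, a log2 fold of 0.85 for DoxTam against Tam. *Ddit4* stood at 25.3, 29.3 and 18.9 FPKM, a log2 fold of -0.61. With 1 library for each label neither difference was tested.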

How the results depend on the processing

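No paired analysis was possible because each condition has 1 library and the labels carry no replicate numbers, so no library could be left out either. Members higher in Tam numbered 5 to 10 under the other scales and filters against 7 as reported, and 3 at 2-fold. In DoxTam 1 was higher and 0 lower at 2-fold. Rescaling to the same total moved the median of all genes to 0.15 in Tam and 0.32 in DoxTam, and relative to that shift the members' medians of 0.47 and 0.56 are close to those reported. On that scale 16 members were higher and 0 lower in DoxTam, and with small RNA genes left out of the total the counts were 4 and 1. The share of all genes past 1.5-fold was taken only for the deposited values and with the GC trend removed. Member counts under the other settings, 16 included, are thus not results about the members. The enzymes minus HIF targets difference in DoxTam was -0.24 with a pseudocount of 5 FPKM, -0.19 with no filter and -0.071 with the GC trend removed, where it was 0.11 for DoxTam against Tam. For DoxTam against Tam, 0 members were lower with a pseudocount of 5 FPKM, on the rescaled total and with the GC trend removed, and 0 were higher or lower at 2-fold, while the median turned to 0.050 on the rescaled total. *Bnip3* and *Bhlhe40* kept their calls against WT under all 6 changes of scale, at 1.01 to 1.33 and 0.76 to 1.15 in Tam and 1.03 to 1.69 and 0.64 to 1.21 in DoxTam. *Aldoc* and *Slc2a3* did so in Tam. *Aldoc* in DoxTam and *Pfkfb3* and *P4ha1* in Tam fell inside the threshold with a pseudocount of 5 FPKM (0.47, 0.37 and 0.51). *Ldhb* did so in DoxTam on the rescaled total (-0.49), where the median of all genes moved to 0.32. Depth limits *Car9*, *Adm* and *Ankrd37*.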
